A study of Mus musculus with 8 samples.

Results

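Potassium channel genes, those whose mouse symbols name a pore-forming or auxiliary subunit of a potassium channel, were examined in single-nucleus RNA sequencing of mouse forebrain. They were taken by symbol: 93 symbols of the files fit the naming pattern of the voltage-gated, calcium- and sodium-activated, inward rectifier and two-pore families, without Kcnj10 and the Kcnip genes. Of these, 85 had at least 50 UMIs (unique molecular identifiers, each standing for 1 counted RNA molecule) over all 8 libraries and were kept, of 54232 genes in the files. The members are 80 channel subunit genes and 5 noncoding transcripts named after a channel gene. Just inside the limit were Kcnv2 with 60 UMIs, Kcnk18 with 69 and Kcne1l with 70. Just outside it was Kcnmb3 with 49, and Kcna7, Kcna10, Kcnj1, Kcnj15, Kcne3, Kcnk15 and Kcnk16 were also left out.

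A cube of forebrain next to the lesion site was taken from mice (Swiss Webster, male, 10 weeks of age), with 2 libraries labelled as biological replicates in each of 4 groups. Control mice had control surgery, BCAS mice had a surgery that the labels give by this abbreviation only, TBI mice had traumatic brain injury, and BCAS+TBI mice had both. The labels name no engineered allele, no agent and no time between surgery and collection, and they do not say whether a library holds 1 animal or several. The study's title asks whether cerebral hypoperfusion worsens traumatic brain injury, which the comparison of BCAS+TBI with TBI and the interaction of the surgeries address.

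A potassium channel lets potassium ions leave the cell along their gradient, which holds the membrane near its resting level and ends the action potential. Voltage-gated subunits assemble into pores that open on depolarisation, calcium- and sodium-activated channels open when those ions rise, inward rectifiers pass current near rest, and two-pore channels leak steadily. Subunit mixtures differ between neuron types and set how fast and how regularly a neuron fires, and in glia and vessels potassium channels buffer extracellular potassium and set vessel tone.

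The 8 libraries fell into 2 sets by depth, with 1 library of every group in each set. The lower-depth set, with 28118725 to 33363564 UMIs a library, was the first library of control, BCAS and TBI and BCAS+TBI 2. The higher-depth set, with 42651388 to 56135192, was BCAS+TBI 1 and the other libraries, those numbered 2. The 85 members, noncoding ones included, took 0.932% to 1.06% of all UMIs in the lower-depth set and 1.28% to 1.38% in the higher-depth set. Mitochondrial genes took 1.20% to 2.77% and 0.511% to 1.04% in the same sets, and whether the members' share follows RNA quality was not tested. Nuclei were assigned to classes by marker genes that include no potassium channel gene, and 17588 of 48468 nuclei passed a gate. A class is called by its marker with "-like", since the label rests on markers only. Levels below are counts of a gene per 1000000 UMIs of its class in a library (CPM), so they compare 1 gene between classes. They do not compare genes with each other, since they are not per length. Over the 80 channel genes, gene length and total UMIs had a Spearman rho of 0.717, and the 16 genes over 200 kb (kilobases) held 79.1% of the channel UMIs. That correlation is across genes, which are not independent and share the same libraries.

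Of the 80 channel genes, 55 had their highest level in 1 of 12 neuron classes and 25 in 1 of 8 glial and vascular classes. Pvalb-like interneurons were the highest class of 12 genes, mid-layer-like and Drd1-like neurons of 7 each and upper-layer-like neurons of 5. In 18 genes the highest class was at least 2-fold above the next, 14 of them in glial or vascular classes and 4 in neurons. For 11 of those 18 the libraries of the 2 classes did not overlap, whereas for 69 of the 80 genes the highest class overlapped its neighbour in at least 1 library. For 20 genes the same class was highest in every library. Such counts were not made over all genes, so they do not show whether channel genes differ from other genes. In 13 genes the highest class held under 20 UMIs in all, and their order is not readable at this depth. Some of the 18 genes above are among them, such as Kcne4 with 10 UMIs and Kcne1 with 18.

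**Figure D1:**
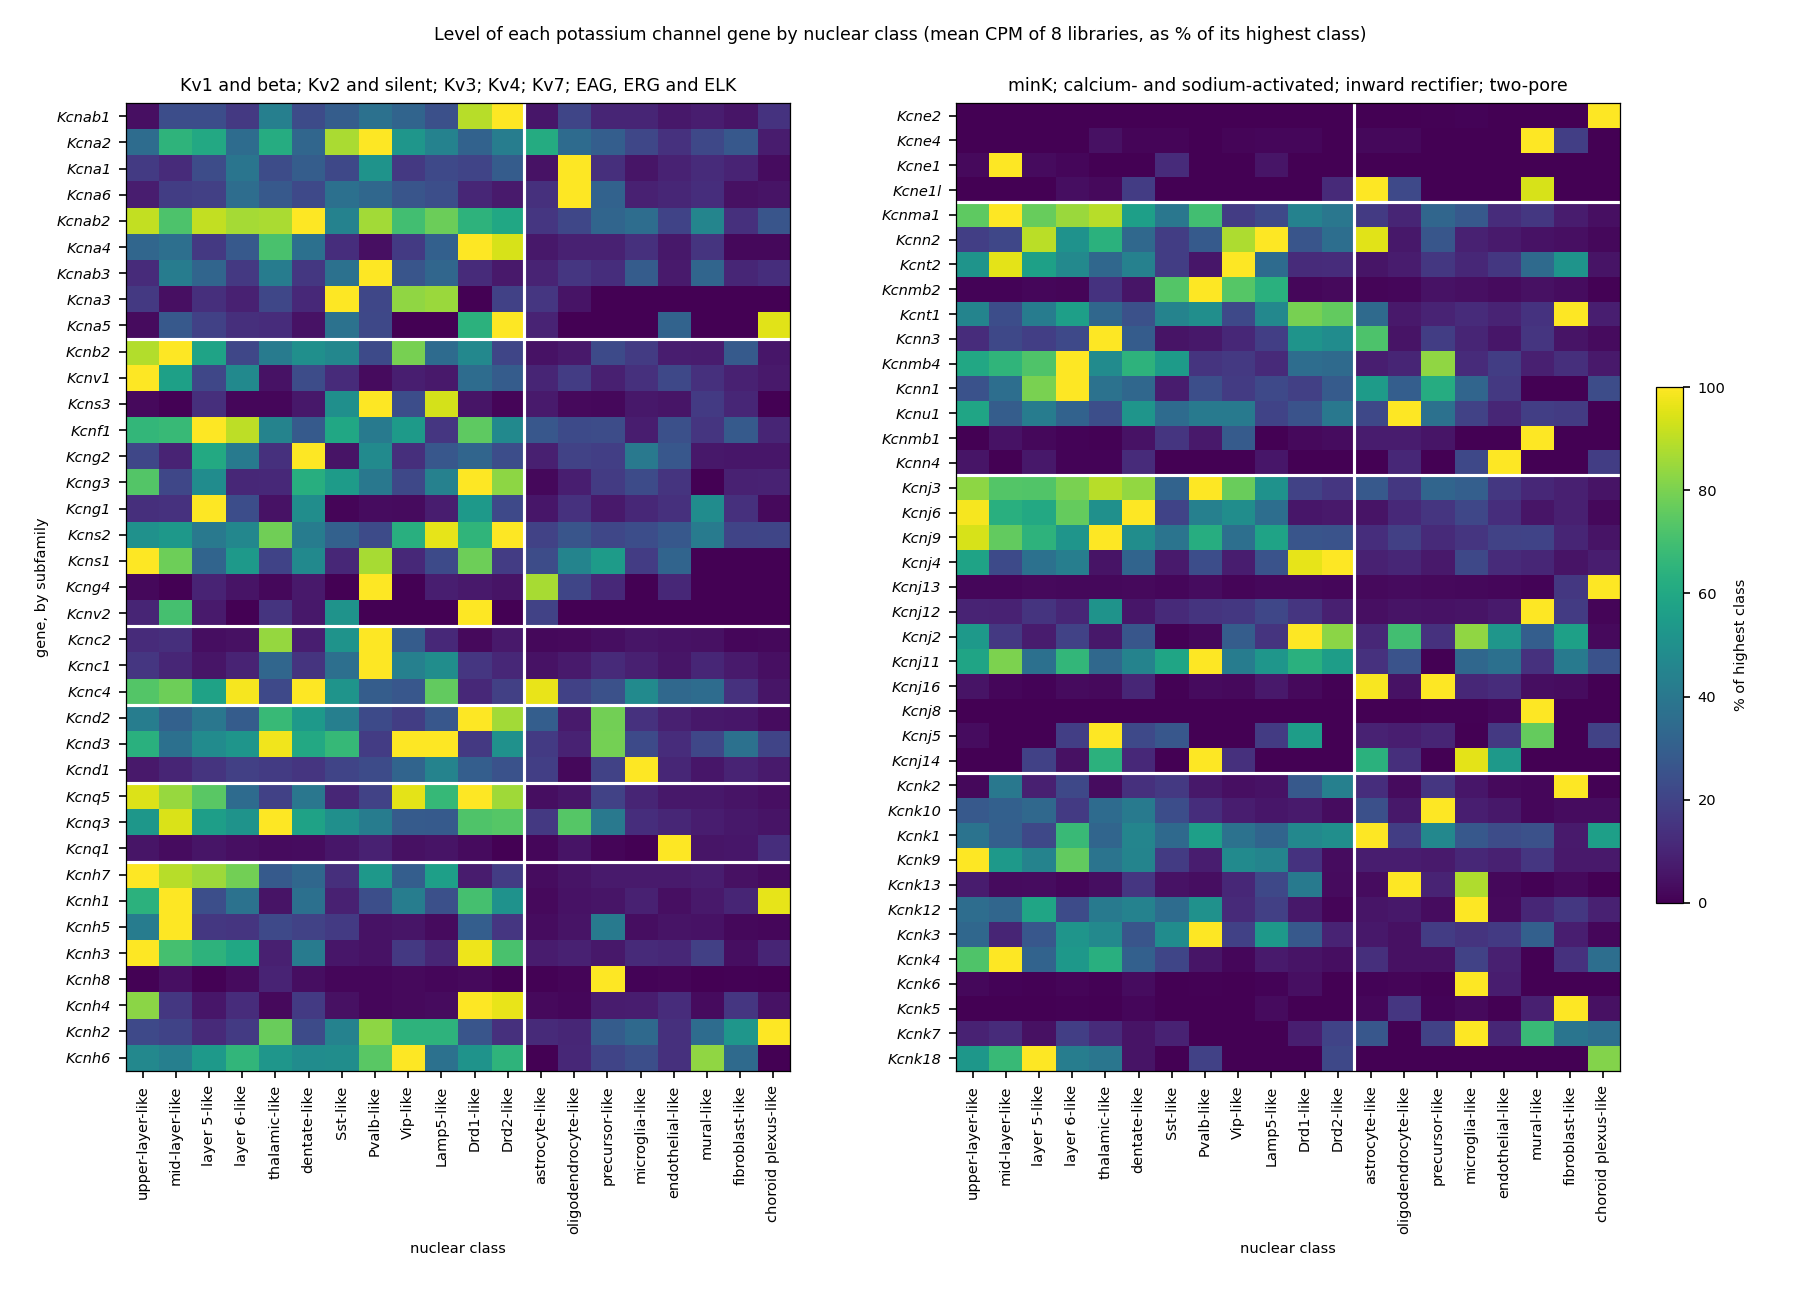
Heat map of 76 channel genes (rows, by subfamily) in 20 nuclear classes (columns, neurons left of the white line and glia and vessels right of it); colour is the mean CPM of 8 libraries as a percentage of the gene's highest class. Most genes are spread over several neuron classes, while 25 reach their highest level right of the line, as Kcnh8 does in precursor-like, Kcnj8 in mural-like and Kcnj13 in choroid plexus-like nuclei.

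The Kv1 family makes the low-threshold channels of axons, and its beta subunits bind the cytoplasmic side of the pore. Kcna1 was highest in oligodendrocyte-like nuclei, with 226 and 298 CPM in control, 158 and 299 in BCAS, 197 and 283 in TBI and 281 and 222 in BCAS+TBI. Its mean there was 246 ± 52.4 CPM (SD, n = 8), against 127 ± 27.1 in Pvalb-like interneurons (SD, n = 8), and the highest Pvalb-like library (174) was above the lowest oligodendrocyte-like one (158). Kcna6 gave 153 and 253 CPM in control, 178 and 217 in BCAS, 171 and 156 in TBI and 209.8 and 158 in BCAS+TBI in the same nuclei. All 8 of its oligodendrocyte-like values lay above the highest value of any other class: Sst-like interneurons, the next class, ran from 37.8 to 91.2 CPM, and the means of 187 and 68.6 stood 2.72-fold apart. Both genes lie side by side on mouse chromosome 6 (GRCm38), with Kcna5, Kcna1 and Kcna6 in this order and gaps of 105.0 and 61.9 kb. Kcna5, the third gene there, reached only 2.53 ± 4.43 CPM in its highest class, from 6 UMIs. Kcna2, which forms axonal channels together with Kcna1, was highest in Pvalb-like interneurons with 150.2 and 140.1 CPM in control, 145 and 144 in BCAS, 124 and 99.8 in TBI and 132 and 96 in BCAS+TBI. Sst-like interneurons followed at 113 ± 14.8 CPM (SD, n = 8) and overlapped them. Kcnab1, a beta subunit that speeds inactivation, had 480.4 and 656 CPM in control, 586 and 789 in BCAS, 579.5 and 532 in TBI and 711 and 409 in BCAS+TBI in Drd2-like striatal neurons and a mean of 529 ± 96.1 (SD, n = 8) in Drd1-like ones, which did not stand apart, while the next class, thalamic-like, had a mean of 255. Kcnab3, another beta subunit, was highest in Pvalb-like interneurons at 27.9 ± 6.29 CPM, 2.37-fold over thalamic-like neurons at 11.8 ± 2.54 (SD, n = 8 each).

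Kv2 subunits make the delayed rectifier of the cell body, and silent subunits (Kcnf, Kcng, Kcns, Kcnv) form no channel alone but join Kv2. Kcnb2 had 996 and 1565 CPM in control, 859.9 and 1378 in BCAS, 878 and 1787 in TBI and 1530.3 and 1234 in BCAS+TBI in mid-layer-like excitatory neurons. Upper-layer-like neurons at 1132 ± 194 and Vip-like interneurons at 1018 ± 239 (SD, n = 8 each) overlapped that range. Among silent subunits, Kcnv1 was an upper-layer-like gene with 70.3 and 62 CPM in control, 85.1 and 51.3 in BCAS, 66 and 48.9 in TBI and 61.2 and 67.1 in BCAS+TBI, against a mean of 36.3 in mid-layer-like neurons. Kcns3 gave 75.1 and 80.6 CPM in control, 70.8 and 77.6 in BCAS, 108 and 88.5 in TBI and 77.5 and 101 in BCAS+TBI in Pvalb-like interneurons. Lamp5-like interneurons, at 79.4 ± 23.1 CPM (SD, n = 8), did not differ from them beyond their spread, and Sst-like interneurons had 42.2 ± 11.7.

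Kv3 channels close quickly and are the channels of fast-firing interneurons. Kcnc2 had 2448 and 3348 CPM in control, 2674 and 3119.5 in BCAS, 2469.6 and 3802 in TBI and 3922 and 2798 in BCAS+TBI in Pvalb-like interneurons, and thalamic-like excitatory neurons came next at 2581 ± 330.3 (SD, n = 8) with overlapping libraries. Sst-like interneurons had a mean of 1581, and their highest library (2042) lay below the lowest of both. Kcnc1 was confined more closely to Pvalb-like nuclei, with 409 and 583 CPM in control, 422 and 506 in BCAS, 422 and 497 in TBI and 535 and 434 in BCAS+TBI and no overlap with any of the other 19 classes. Its next class, Lamp5-like interneurons, had a mean of 233 and a highest library of 269.8, a 2.04-fold step. Kcnc4 had no leading class: dentate-like neurons gave 17.6 and 34.4 CPM in control, 25.6 and 26.4 in BCAS, 20.7 and 50.5 in TBI and 22.7 and 37.4 in BCAS+TBI, and layer 6-like neurons at 29 ± 8.28 and astrocyte-like nuclei at 28.5 ± 6.8 (SD, n = 8 each) lay in that range.

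Kv4 channels carry the A current, which delays firing in dendrites. Kcnd2 was highest in Drd1-like striatal neurons with 4482 and 6065 CPM in control, 3512 and 6872 in BCAS, 4809.8 and 5829 in TBI and 6111 and 4658 in BCAS+TBI, followed by Drd2-like neurons at 4563 ± 677. Oligodendrocyte precursor-like nuclei came next at 4168 ± 678 CPM (SD, n = 8), above 10 of the 12 neuron classes in mean and overlapping both striatal classes. Kcnd3, the other neuronal pore subunit, gave 282 and 410.2 CPM in control, 291 and 460.4 in BCAS, 335 and 431 in TBI and 435 and 363 in BCAS+TBI in Vip-like interneurons. Lamp5-like at 375 ± 70.2 and thalamic-like at 368 ± 77 (SD, n = 8 each) were not separable from them. Kcnd1 was low in neurons and highest in microglia-like nuclei with 19 and 38.6 CPM in control, 51.9 and 21.4 in BCAS, 23.4 and 33.1 in TBI and 27.4 and 30.3 in BCAS+TBI, from 29 UMIs. Lamp5-like interneurons followed 2.23-fold lower, with 7.65 to 18 CPM in their libraries.

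Kv7 subunits make the M current, which acetylcholine closes and which restrains repetitive firing. Kcnq5 had 1967 and 2547 CPM in control, 1694 and 3092 in BCAS, 2059.7 and 3595 in TBI and 2995 and 2041 in BCAS+TBI in Drd1-like neurons, and Vip-like (2399.9) and upper-layer-like neurons (2366) had means within that range. Kcnq3 led in thalamic-like neurons with 1123 and 1708 CPM in control, 1102 and 1466 in BCAS, 1338 and 1689.7 in TBI and 1433 and 1024 in BCAS+TBI. Oligodendrocyte-like nuclei carried 1001 ± 213 CPM of Kcnq3 (SD, n = 8), level with Drd2-like neurons (1002) and below only them, thalamic-like and mid-layer-like neurons. Kcnq1, the pore subunit that works with minK proteins in epithelia and heart, had 27.6 and 93.1 CPM in control, 42.4 and 31.8 in BCAS, 93 and 26.5 in TBI and 70.7 and 56.5 in BCAS+TBI in endothelial-like nuclei, from 84 UMIs. Choroid plexus-like nuclei followed at a mean of 7.22 CPM, 7.65-fold lower, and none of their libraries reached the lowest endothelial-like one.

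The Kcnh family holds the EAG, ERG and ELK channels. Kcnh7, an ERG subunit, ran highest in upper-layer-like neurons with 2477 and 2780.2 CPM in control, 2182 and 3174 in BCAS, 2211 and 2724 in TBI and 2856 and 1947 in BCAS+TBI, and mid-layer-like neurons at 2275 ± 351 (SD, n = 8) overlapped. Kcnh1, an EAG subunit, gave 481 and 410.0 CPM in control, 446 and 596 in BCAS, 576 and 523 in TBI and 463 and 342 in BCAS+TBI in mid-layer-like neurons, and choroid plexus-like nuclei reached 462 ± 120.0 (SD, n = 8), indistinguishable from them at this spread. Kcnh5, the other EAG subunit, had 515 and 523 CPM in control, 311 and 784 in BCAS, 625 and 514 in TBI and 484 and 455 in BCAS+TBI in mid-layer-like neurons. That class stood 2.37-fold above upper-layer-like neurons, whose libraries ran from 189 to 277, with no overlap. Kcnh3, an ELK subunit of the forebrain, gave 86.4 and 84.7 CPM in control, 72.9 and 91.6 in BCAS, 88 and 77.2 in TBI and 73.5 and 60.4 in BCAS+TBI in upper-layer-like neurons, and Drd1-like neurons were level with them at 77.4 ± 26.4 (SD, n = 8).

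Kcnh8, the third ELK subunit, was a gene of oligodendrocyte precursor-like nuclei. It had 244 and 375 CPM in control, 421 and 437 in BCAS, 386 and 275 in TBI and 410.2 and 302 in BCAS+TBI there, a mean of 356 ± 72.7 (SD, n = 8) from 689 UMIs. Thalamic-like neurons were next at 35.7 ± 10.5 CPM (SD, n = 8), 9.99-fold lower, and their highest library had 51.8. Oligodendrocyte-like nuclei, which mature from precursors, had 5.5 ± 3.69 CPM. Kcnh8 was among the 10 genes with the highest fold of the precursor-like class over the other classes, beside the precursor markers Pdgfra and Cspg4, although it was not used in the gate.

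**Figure D2:**
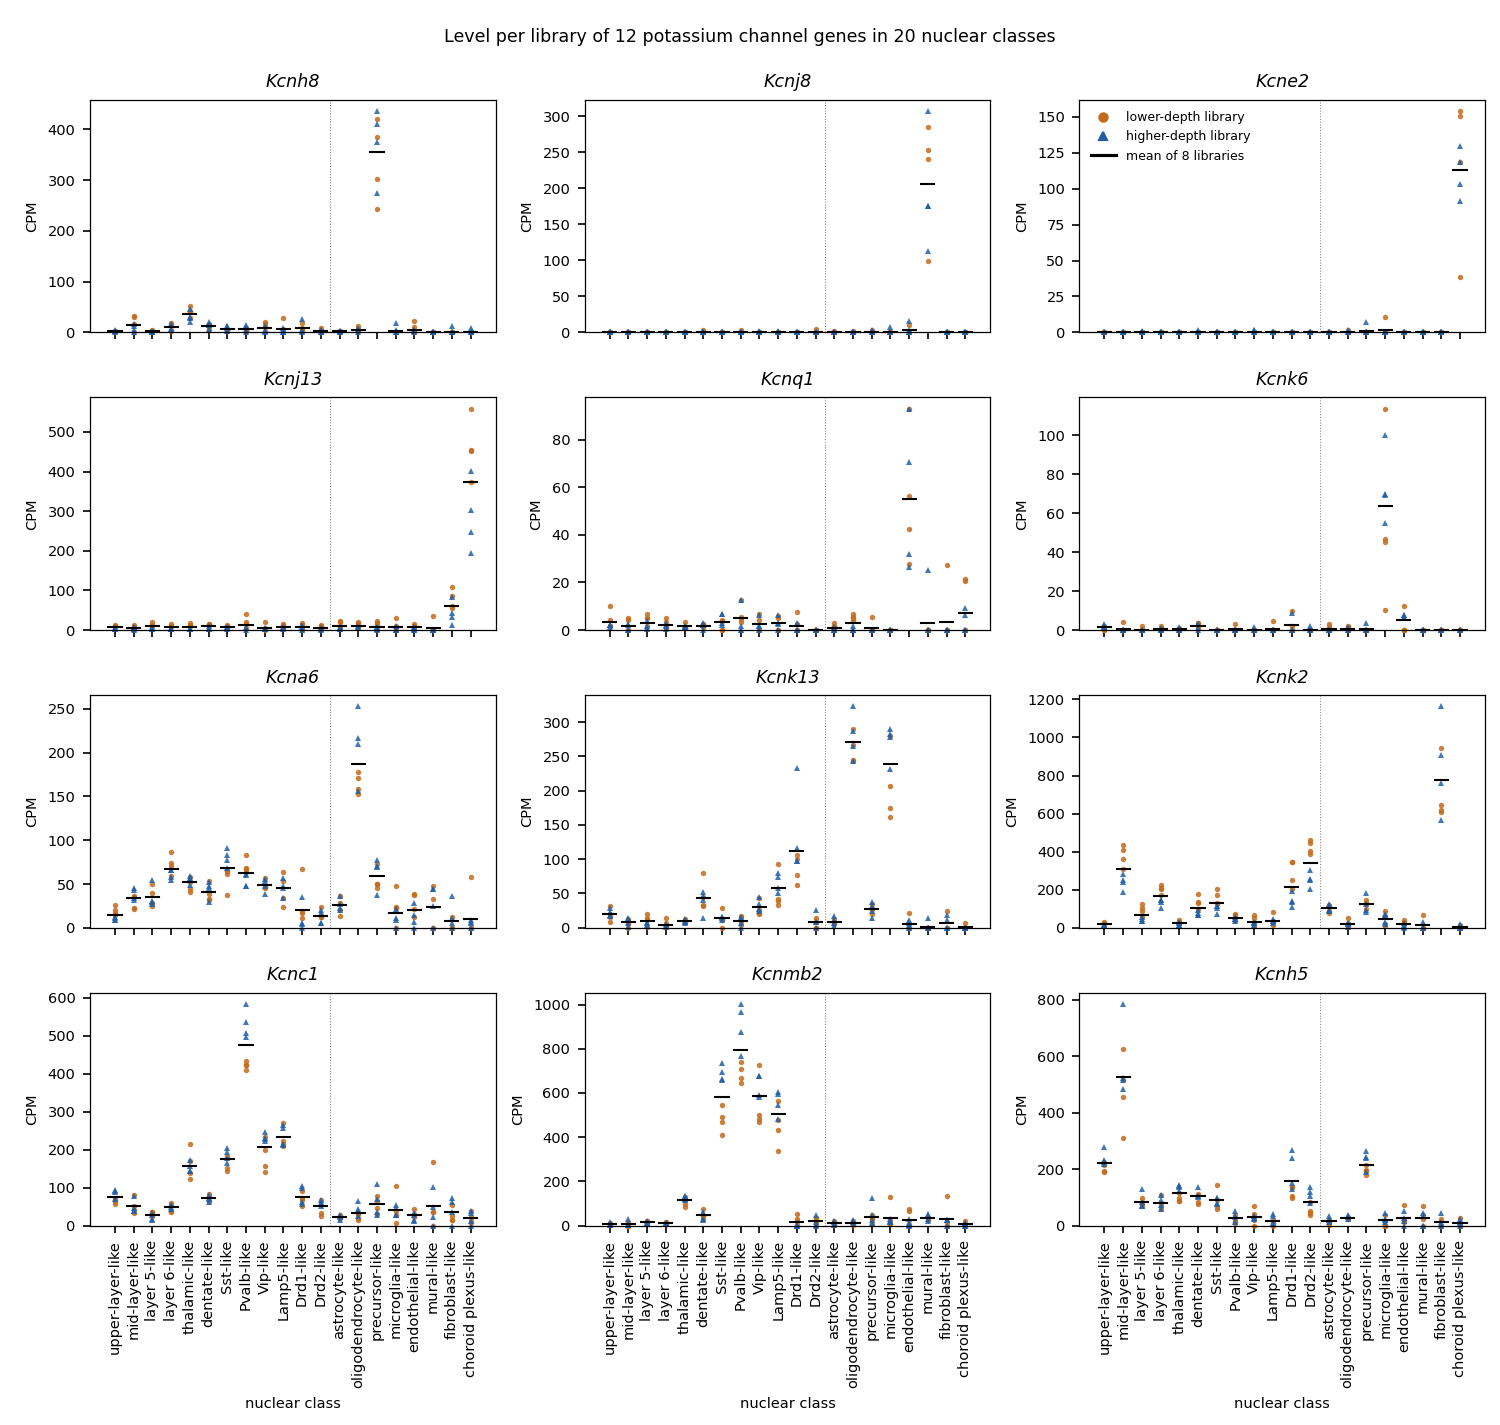
Level (CPM, vertical axis from 0, its own scale for each gene) of 12 channel genes in 20 nuclear classes (horizontal axis, neurons left of the dotted line); each point is 1 library, circles lower-depth and triangles higher-depth, and bars are the mean of 8 libraries. Kcnh8, Kcnj8, Kcne2, Kcnj13 and Kcnq1 stand out in 1 glial or vascular class, Kcnc1 in Pvalb-like nuclei (409 to 583 CPM), and Kcnk13 in oligodendrocyte-like and microglia-like nuclei together.

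Small minK proteins, the Kcne genes, modify Kv7 and other pores and are prominent in epithelia. Kcne2 was highest among the classes in choroid plexus-like nuclei, the epithelium that secretes cerebrospinal fluid, with 154 and 129.7 CPM in control, 38.5 and 91.5 in BCAS, 151 and 103 in TBI and 118 and 119 in BCAS+TBI from 104 UMIs. The next class, microglia-like, had a mean of 1.3 CPM from 1 UMI. Over all barcodes Kcne2 had 217 UMIs, most of them outside these choroid plexus-like nuclei. Kcnj13, an inward rectifier of transporting epithelia, had the same leading class, with 373 and 249 CPM in control, 559 and 194 in BCAS, 452 and 304 in TBI and 401 and 454 in BCAS+TBI. Fibroblast-like nuclei were its second class at 60.6 ± 31.5 CPM (SD, n = 8), 6.16-fold lower, and their highest library of 109.6 lay below the lowest choroid plexus-like one of 194. Neurons had at most 12.4 CPM of Kcnj13 in the mean of a class. The remaining minK genes were sparse. Kcne4 had 99.1 and 25.1 CPM in control, 0 and 29.3 in BCAS, 47.6 and 16.2 in TBI and 0 and 36.1 in BCAS+TBI in mural-like nuclei from 10 UMIs. Kcne1 had 5.66 and 5.21 CPM in control, 9 and 1.49 in BCAS, 0 and 9.14 in TBI and 4.52 and 8.66 in BCAS+TBI in mid-layer-like neurons from 18 UMIs, and Kcne1l had 3.06 and 1.11 CPM in control, 5.5 and 2.1 in BCAS, 2.65 and 2.01 in TBI and 1.24 and 7.67 in BCAS+TBI in astrocyte-like nuclei from 19 UMIs. All 3 have libraries that overlap another class. Kcne2 and Kcne1 are neighbours on chromosome 16, 47.9 kb apart. With 18 UMIs in its highest class, Kcne1 is too sparse for its leading class to be compared with that of Kcne2.

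The 250 bases before the start of transcription of these 2 choroid plexus genes, and of 2 other genes with 1 leading glial or vascular class, are shown to let their promoters be compared. They come from RefSeq on build GRCm38.p6, 5′ to 3′ on the gene's own strand. Capitals mark a match, on either strand, to 3 motifs. The GC box was searched as GGGCGG, the TATA box of core promoters by the letters TATAAA and an E box as CAGCTG. A homeodomain motif, TAATCC, and a SOX motif with the letters ACAAAG were also searched on both strands, and no match overlapped another.
Kcne2, chr16:92292139-92292388, plus strand, first of 2 annotated starts: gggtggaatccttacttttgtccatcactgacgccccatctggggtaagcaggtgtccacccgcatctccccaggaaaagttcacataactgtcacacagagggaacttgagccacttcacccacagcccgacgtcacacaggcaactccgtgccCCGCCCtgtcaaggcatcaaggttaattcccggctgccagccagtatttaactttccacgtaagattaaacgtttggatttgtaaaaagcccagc
Kcnj13, chr1:87394730-87394979, minus strand: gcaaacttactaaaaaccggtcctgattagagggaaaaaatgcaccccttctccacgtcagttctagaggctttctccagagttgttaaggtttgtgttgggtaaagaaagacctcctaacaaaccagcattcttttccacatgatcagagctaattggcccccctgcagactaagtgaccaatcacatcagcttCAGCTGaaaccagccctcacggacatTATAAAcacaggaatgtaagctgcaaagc
Kcnj8, chr6:142571615-142571864, minus strand: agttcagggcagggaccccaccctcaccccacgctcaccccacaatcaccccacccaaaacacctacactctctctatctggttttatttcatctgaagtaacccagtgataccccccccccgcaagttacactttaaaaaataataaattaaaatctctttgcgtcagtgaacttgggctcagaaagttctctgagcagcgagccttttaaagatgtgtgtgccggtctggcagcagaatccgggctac
Kcnh8, chr17:52602459-52602708, plus strand: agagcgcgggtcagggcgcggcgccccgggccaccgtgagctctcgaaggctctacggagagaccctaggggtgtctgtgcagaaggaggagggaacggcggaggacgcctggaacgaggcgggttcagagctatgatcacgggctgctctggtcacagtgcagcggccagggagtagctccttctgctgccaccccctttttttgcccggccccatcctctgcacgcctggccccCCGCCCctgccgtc
Kcne2 has a GC box whose match begins at -95 and Kcnj13 a TATA box at -29 and the E box at -55, counted from the first transcribed base. Kcnh8 has a GC box at -14 in a window of 68.4% G and C, and none of the 5 motifs was found in the Kcnj8 window. The table holds 32851 promoters of 27025 genes and covers 55 of the 80 channel genes. Channel genes are counted once each, with G and C content at the first start, whereas all promoters include several starts of some genes. A GC box was present in 31 of these (56.4%), against 32.7% of all promoters, and the channel genes' median G and C content was 61.2% against 52.4%. TATAAA was present in 2 (3.64% against 12.4%), CAGCTG in 13 (23.6% against 13.001%), TAATCC in 1 (1.82% against 6.25%) and ACAAAG in 4 (7.27% against 16.5%). A match is a run of letters and not a bound site.

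Calcium-activated and sodium-activated channels couple firing to ion entry. Kcnma1, the large-conductance (BK) pore, was highest in mid-layer-like neurons with 2083 and 2135 CPM in control, 2089 and 2373 in BCAS, 2119 and 2364 in TBI and 2258 and 1494 in BCAS+TBI, and thalamic-like neurons at 1886 ± 181 overlapped them. Kcnmb2, a BK auxiliary subunit that makes the channel inactivate, followed interneuron identity: Pvalb-like nuclei had 667 and 766 CPM in control, 644 and 877 in BCAS, 710.0 and 1002 in TBI and 965 and 741 in BCAS+TBI. Vip-like, Sst-like and Lamp5-like interneurons had means of 587, 583 and 505 CPM. The 4 cortical excitatory classes had at most 14.4, and only thalamic-like neurons among excitatory classes went above 100 CPM, with 116 ± 17.8 (SD, n = 8). Kcnn2, a small-conductance (SK) pore that shapes the pause after a spike, gave 948 and 603 CPM in control, 902 and 839 in BCAS, 848 and 784 in TBI and 898 and 641 in BCAS+TBI in Lamp5-like interneurons. Astrocyte-like nuclei had nearly as much, 770.3 ± 249 CPM (SD, n = 8), which overlaps the Lamp5-like, layer 5-like (724) and Vip-like (709.5) levels. Kcnt2, a sodium-activated pore, had 734 and 1056 CPM in control, 759 and 1109 in BCAS, 681 and 848 in TBI and 904 and 519 in BCAS+TBI in Vip-like interneurons, and mid-layer-like neurons at 791 ± 147 (SD, n = 8) were not apart from them.

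Inward rectifiers include the G-protein-gated (GIRK) channels, which slow firing when inhibitory receptors are active. Kcnj3, which makes GIRK channels with Kcnj6 or Kcnj9, had 571 and 708 CPM in control, 486 and 688 in BCAS, 591 and 579 in TBI and 715 and 572 in BCAS+TBI in Pvalb-like interneurons, and thalamic-like neurons at 547 ± 134 (SD, n = 8) overlapped. Kcnj6 gave 273 and 355 CPM in control, 239 and 312 in BCAS, 289 and 498 in TBI and 324 and 356 in BCAS+TBI in dentate-like neurons, level with upper-layer-like neurons at 326 ± 31.7. Kcnj9 was even across libraries in thalamic-like neurons, with 117 and 117 CPM in control, 127 and 120.4 in BCAS, 114 and 105 in TBI and 109 and 116 in BCAS+TBI. Drd1-like and Drd2-like neurons had 19.6 and 22.6 CPM of Kcnj6 and 122 and 97.1 CPM of Kcnj3, below the 10 other neuron classes for both genes. The classical inward rectifier Kcnj4 was instead highest in these striatal neurons, with 52.3 and 50.5 CPM in control, 63 and 36.6 in BCAS, 75.1 and 63.2 in TBI and 42.1 and 76.7 in BCAS+TBI in Drd2-like nuclei and a mean of 55.4 ± 23 in Drd1-like ones.

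Kcnj8, the pore of the ATP-sensitive potassium channel of pericytes and vascular smooth muscle, was a mural gene. Mural-like nuclei (pericytes and smooth muscle of vessels) had 99.1 and 175 CPM in control, 239.9 and 176 in BCAS, 285 and 113 in TBI and 307 and 253 in BCAS+TBI of it, a mean of 206 ± 77.3 (SD, n = 8) from 69 UMIs. Endothelial-like nuclei had a mean of 3.79 CPM from 6 UMIs, and no library of them reached the lowest mural-like one. Its partner Abcc9, the sulfonylurea receptor that lies 16.2 kb away on chromosome 6, had a mean of 1726 CPM in mural-like nuclei and 17.7 in endothelial-like ones. Abcc9 was not used in the gate and was among the 10 genes of highest fold in mural-like nuclei. Kcnj11, the pore of the neuronal ATP-sensitive channel, lies 3.8 kb from its partner Abcc8 on chromosome 7. It was highest in Pvalb-like interneurons at 12.8 ± 6.74 CPM (SD, n = 8) and not separable from mid-layer-like neurons at 10.3 ± 5.4, the class in which Abcc8 was highest (55.6 CPM ± 11.6, SD, n = 8).

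Two-pore channels carry the leak. Kcnk2 (TREK-1), which opens on membrane stretch, was highest outside neurons: fibroblast-like nuclei, the cells of the meninges and vessel sheath, had 947 and 568 CPM in control, 644 and 1164 in BCAS, 607 and 759 in TBI and 908 and 616 in BCAS+TBI. All 8 were above the highest library of Drd2-like neurons (459), the next class, whose mean of 339 was 2.29-fold lower. Kcnk10 (TREK-2) gave 127 and 186 CPM in control, 213 and 192 in BCAS, 189 and 251 in TBI and 289.5 and 135 in BCAS+TBI in precursor-like nuclei, 2.44-fold over dentate-like neurons, and the lowest precursor-like library (127) lay below the highest dentate-like one (129). Kcnk1 (TWIK-1) was highest in astrocyte-like nuclei with 179 and 116 CPM in control, 83.8 and 98.8 in BCAS, 103 and 64.4 in TBI and 69.3 and 193 in BCAS+TBI, and layer 6-like neurons at 76.8 ± 25.4 overlapped. Kcnk9 (TASK-3), an acid-sensitive leak channel, had 76.3 and 106 CPM in control, 74.7 and 107 in BCAS, 70.4 and 93.9 in TBI and 99.4 and 55.3 in BCAS+TBI in upper-layer-like neurons.

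Kcnk6 (TWIK-2) was a microglial gene with 114 and 69.4 CPM in control, 10.4 and 69.7 in BCAS, 46.7 and 55.2 in TBI and 100.4 and 45.5 in BCAS+TBI in microglia-like nuclei, from 63 UMIs. The BCAS 1 library was far below the other 7 and overlapped endothelial-like nuclei, whose mean was 5.13. Kcnk13 (THIK-1), the tonic channel of resting microglia, had 161 and 278 CPM in control, 207 and 289 in BCAS, 280.3 and 232 in TBI and 283 and 174 in BCAS+TBI in microglia-like nuclei and 267 and 287 CPM in control, 290.2 and 323 in BCAS, 245 and 264 in TBI and 244 and 243 in BCAS+TBI in oligodendrocyte-like nuclei. The oligodendrocyte-like class was the higher in mean and they overlapped, while Drd1-like neurons came next with 111 ± 51.9 (SD, n = 8). Microglia-like nuclei showed 14.1 ± 9.1 CPM of Kcna1 against 246 ± 52.4 in oligodendrocyte-like nuclei. Kcnk5 (TASK-2) was highest in fibroblast-like nuclei, at 48 ± 30.6 CPM from 34 UMIs, 6.27-fold over oligodendrocyte-like nuclei, with overlap.

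Among the 5 noncoding members, Kcnq1ot1, the imprinted antisense transcript of Kcnq1, was highest in choroid plexus-like nuclei with 900.1 and 1265 CPM in control, 906 and 1281 in BCAS, 863 and 1279 in TBI and 1157 and 1038 in BCAS+TBI. Only the lowest of them (863 CPM) lay within the range of Pvalb-like interneurons, the next class (503 to 882 CPM). Kcnq1 itself had only 7.22 CPM there. Kcnq1ot1 lies inside Kcnq1 on the other strand, and Kcnd3os, Kcnab3os, Kcnmb4os1 and Kcnmb4os2 overlap or adjoin their host genes. The strand setting of the count is not given in the sources used here, so reads of such a pair cannot be told apart with certainty.

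Neuronal RNA was measurable in every glial and vascular class, and it sets how far a low level there can be read. Snap25, Rbfox3, Syt1 and Snhg11, genes of all neurons that were not used in any gate, had together 8.03% of their mean neuron level in astrocyte-like nuclei, 13.7% in oligodendrocyte-like, 18.6% in precursor-like, 24.2% in microglia-like, 19.5% in endothelial-like, 17.6% in mural-like, 12.8% in fibroblast-like and 10.5% in choroid plexus-like nuclei. Median depths were 886 to 2890.5 UMIs per nucleus in these classes and 5251 to 13888 in neurons. Of the 58 channel genes with at least 5 CPM in neurons, those above their own mean over the 12 neuron classes numbered 9 in astrocyte-like, 6 in oligodendrocyte-like, 11 in precursor-like, 5 in microglia-like, 1 in endothelial-like, 4 in mural-like, 7 in fibroblast-like and 6 in choroid plexus-like nuclei. At or below the percentage of the 4 neuronal genes lay 6, 13, 11, 11, 16, 20, 11 and 22 of the 58 in the same order. Levels there cannot be told apart from neuronal RNA, whose part was not tested.

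Some channel genes stood far over that percentage in a class and are named after their values were seen. In oligodendrocyte-like nuclei Kcnk13 had 992% of its neuron mean, Kcna6 445%, Kcna1 392% and Kcnq3 125%. In precursor-like nuclei Kcnh8 had 3665%, Kcnk10 487%, Kcnmb4 173%, Kcnd2 169% and Kcnh5 168%. Astrocyte-like nuclei had 250% of the neuron mean of Kcnn3, an SK pore, 244% of Kcnk1 and 199% of Kcnn2. Microglia-like nuclei had 874% of Kcnk13, 462% of Kcnd1, 333% of Kcnk12, the silent partner of Kcnk13, and 277% of Kcnj2. Mural-like nuclei had 626% of Kcnj12, from 22 UMIs, and 2 of the 8 mural-like libraries had no Kcnj12 UMI. Fibroblast-like nuclei had 790% of Kcnj13, 621% of Kcnk2 and 221% of Kcnt1, a sodium-activated pore that reached 156 ± 33.4 CPM there (SD, n = 8).

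**Figure D3:**
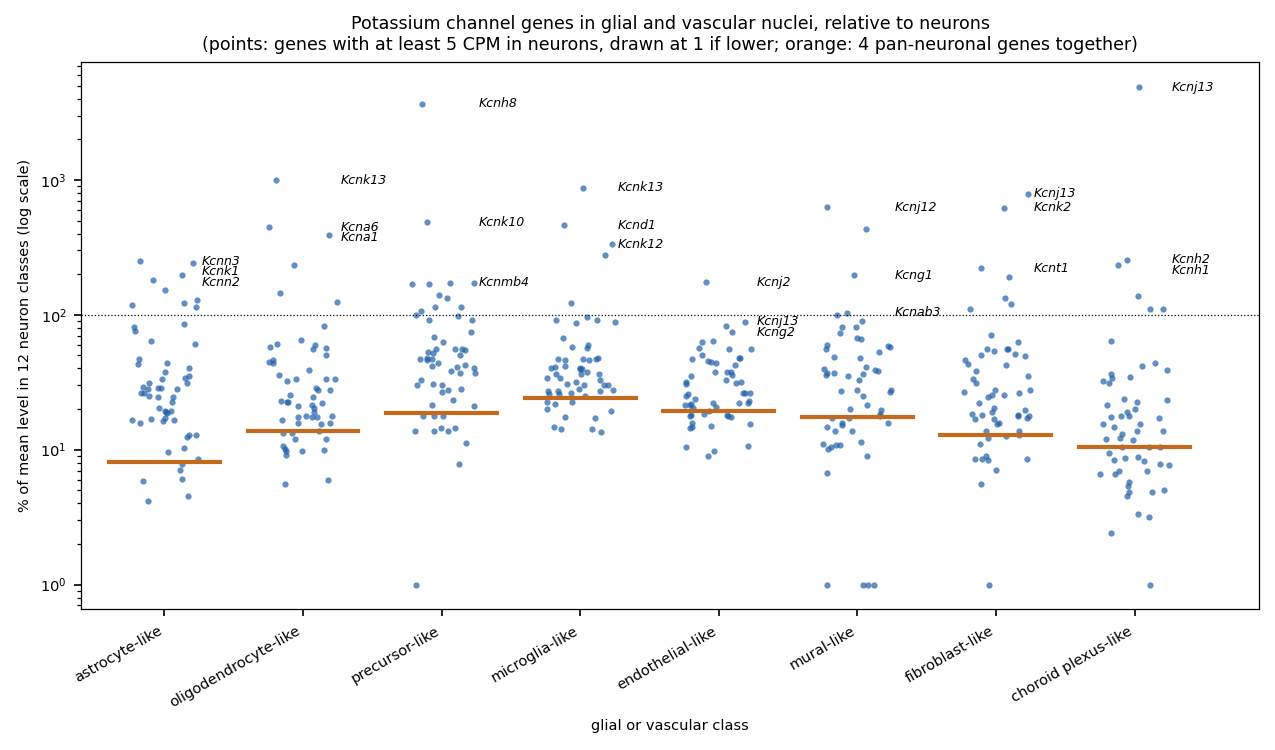
Level of channel genes in 8 glial and vascular classes (horizontal axis) as a percentage of the gene's mean over 12 neuron classes (vertical axis, log scale); points are the 58 genes with at least 5 CPM in neurons, and the orange bar is the same percentage for 4 pan-neuronal genes. The bars lie at 8.03% to 24.2%, and between 1 gene (endothelial-like) and 11 genes (precursor-like) of a class lie above the dotted line at 100%.

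Pairs of related classes were then compared within libraries by edgeR's quasi-likelihood test with the library as a block, with adjusted p-values over all genes tested. Libraries stand for separate samples as labelled. These p-values measure how the difference between 2 classes within a library varies over the 8 libraries of all 4 groups. Pvalb-like against Sst-like interneurons differed in 29 of 33 members tested, 19 higher and 10 lower, where 32.8% of all 5967 genes tested passed (16.7% higher, 16.1% lower). The members' median log2 difference was 0.43, against 0.01 over all genes tested. Higher in Pvalb-like nuclei were the ERG gene Kcnh7 (log2 difference 2.00, SE 0.10, adjusted p = 9.3e-15), the GIRK gene Kcnj3 (1.62, SE 0.09) and the Kv3 genes Kcnc1 (1.45, SE 0.08) and Kcnc2 (0.94, SE 0.06). Kcnma1 was higher by 0.80 (SE 0.07). Lower in Pvalb-like nuclei were both Kv4 genes, Kcnd3 (-1.99, SE 0.12, adjusted p = 8.7e-13) and Kcnd2 (-0.96, SE 0.07), the Kv2 gene Kcnb2 (-1.07, SE 0.08) and Kcnt2 (-1.60, SE 0.14). Both Kv4 genes tested were thus higher in Sst-like nuclei. With a minimum count of 30 in the filter, fewer genes were tested and 19 of 21 members passed, against 47.0% of all genes.

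Vip-like against Lamp5-like interneurons differed in 16 of 32 members, 9 higher and 7 lower, with 23.4% of all genes passing (11.5% higher, 11.9% lower). Kcnt2 (1.57, SE 0.09, adjusted p = 3.6e-14), Kcnc2 (1.40, SE 0.10) and Kcnb2 (1.23, SE 0.12) led the genes higher in Vip-like nuclei, followed by Kcnh1 (0.91, SE 0.13), Kcnj3 (0.64) and Kcnq5 (0.57). The silent subunit Kcns3 (-1.95, SE 0.19, adjusted p = 2.1e-09), Kcnh7 (-0.87) and Kcnd2 (-0.55) were higher in Lamp5-like nuclei. Kcnd3, alike in level above, had a difference of 0.07 (SE 0.10, adjusted p = 0.7). Within the 4 lower-depth libraries alone, 7 of 24 members passed, against 13.9% of all genes. 

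The 2 kinds of striatal projection neuron, Drd1-like and Drd2-like, differed in 9 of 28 members, 4 higher and 5 lower in Drd1-like nuclei, with 11.0% of all genes passing (4.7% higher, 6.31% lower). Kcnk13 was the widest apart: Drd1-like nuclei had 100.5 and 233 CPM in control, 106 and 97.5 in BCAS, 77.2 and 97.9 in TBI and 117 and 62.2 in BCAS+TBI and Drd2-like nuclei 0 and 8.41 CPM in control, 14.5 and 9.15 in BCAS, 9.01 and 26.3 in TBI and 0 and 0 in BCAS+TBI (log2 difference 3.56, SE 0.31, adjusted p = 1.8e-10). The libraries of the 2 classes did not overlap. Kcnb2 (1.09, SE 0.11), Kcnh5 (0.76, SE 0.16) and Kcnh1 (0.44, SE 0.13) were also higher in Drd1-like nuclei. Kcnd3 (-1.59, SE 0.19, adjusted p = 7.7e-08), Kcnc2 (-1.51, SE 0.23), Kcnh7 (-1.30, SE 0.16), Kcnk2 (-0.78) and Kcnn2 (-0.52) were higher in Drd2-like nuclei. Kcnab1, Kcnd2, Kcnj4 and Kcna4, all at or near their highest in both classes, did not pass (Kcnd2 0.16, SE 0.07; Kcnj4 -0.04, SE 0.21).

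Inhibitory interneuron-like against cortical excitatory-like neurons gave 51 calls among 62 members, 15 higher and 36 lower in interneurons, against 53.6% of all genes (28.5% higher, 25.1% lower). The largest differences upward were Kcnmb2 (5.95, SE 0.10, adjusted p = 1.8e-26), Kcns3 (3.55, SE 0.12), Kcnc2 (2.77, SE 0.05) and Kcnc1 (2.37, SE 0.05). Downward, the ELK gene Kcnh3 (-3.05, SE 0.13), the silent subunit Kcnv1 (-2.90, SE 0.14) and the EAG gene Kcnh5 (-2.02, SE 0.08) were among the 10 smallest p-values, with Kcnh7 (-1.34) and Kcnma1 (-1.16). BK channels thus differed in both parts, with the pore gene Kcnma1 lower and the auxiliary gene Kcnmb2 higher in interneurons. The interneuron sum joins classes that differ among themselves, as Kcnh7 does between Pvalb-like and Sst-like nuclei.

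Precursor-like against oligodendrocyte-like nuclei differed in 23 of 25 members, 18 higher and 5 lower in precursors, with 56.4% of all genes passing (28.3% higher, 28.1% lower) and a median log2 difference of 1.23 for members against -0.02 for all genes. The members' median was 2.04 without high-UMI nuclei and 2.00 with a stricter gate, and over all genes -0.07 and -0.09. Kcnh8 (5.98, SE 0.20, adjusted p = 8.7e-21), Kcnk10 (3.85, SE 0.18), Kcnd2 (3.47, SE 0.09), Kcnd3 (3.15, SE 0.14) and Kcnh5 (2.97, SE 0.13) were higher in precursors, as were Kcnn2 (2.06), Kcnq5 (1.92) and Kcnma1 (1.67). The 5 that were lower were Kcnk13 (-3.31, SE 0.15), Kcna1 (-2.90, SE 0.15), Kcna6 (-1.67, SE 0.15), Kcnab1 (-0.94) and Kcnq3 (-0.82), of which the last 3 are named after their values were seen. The 4 pan-neuronal genes were at 18.6% of their neuron level in precursors and 13.7% in oligodendrocytes, and the part of this in the smaller differences was not tested.

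**Figure D4:**
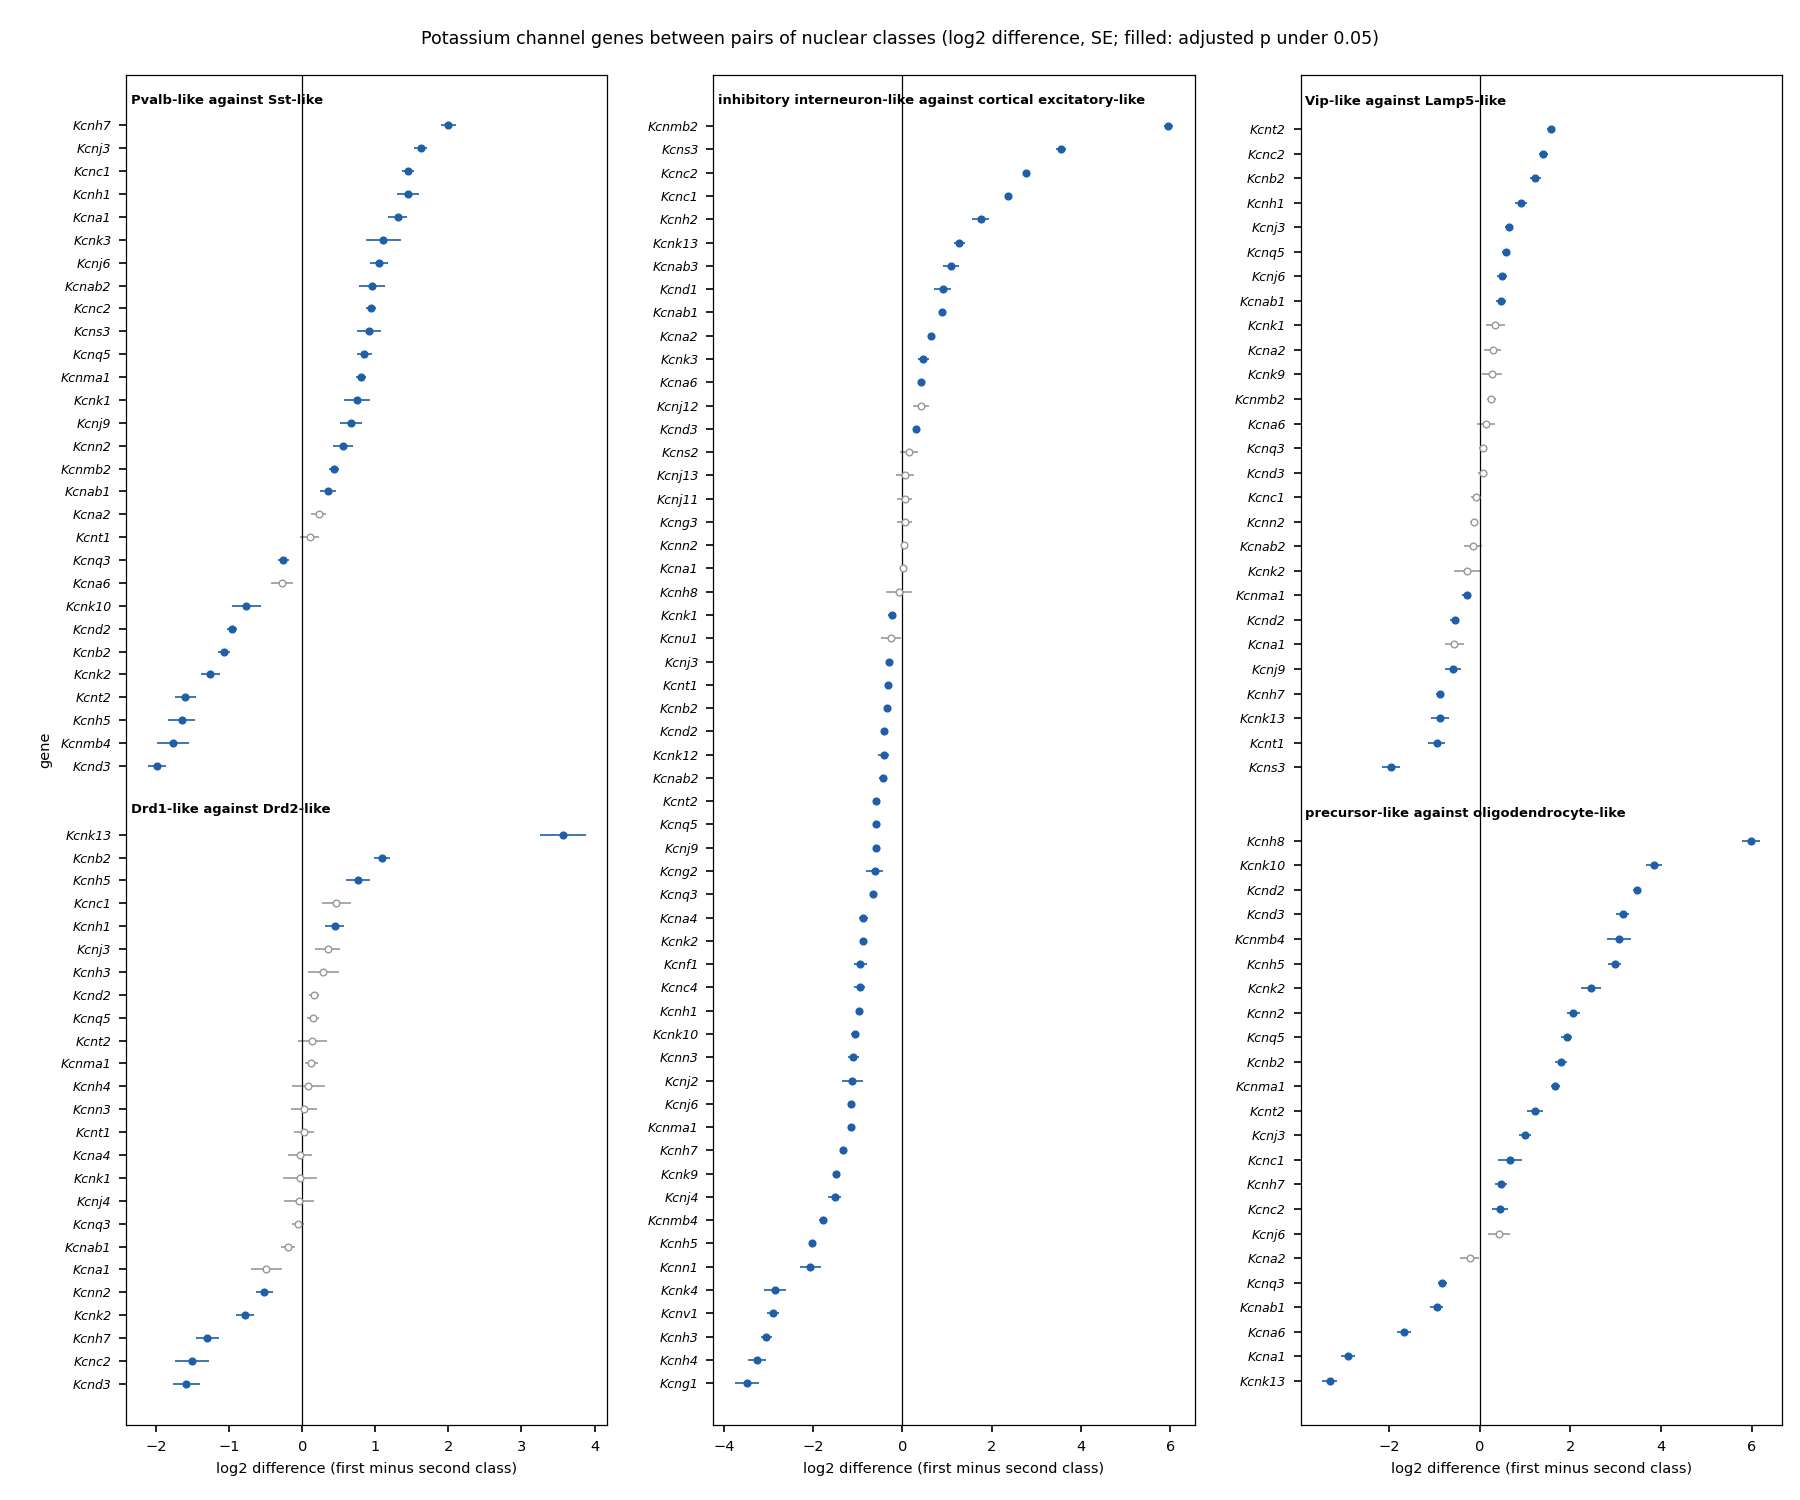
Log2 difference of the channel genes shown (horizontal axis, first class minus second) in 5 pairs of classes. Bars are SE, the size of the log2 difference over the square root of edgeR's F statistic in the fit to 8 libraries. Filled points have an adjusted p under 0.05. Kcnmb2 lies at 5.95 in interneurons, Kcnh8 at 5.98 and Kcnk10 at 3.85 in precursors, and Kcnk13 at 3.56 in Drd1-like neurons.

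In mural-like against endothelial-like nuclei 1 of 8 members passed, Kcnt2 (log2 difference 1.25, SE 0.26, adjusted p = 0.00083), against 43.5% of all genes (19.8% higher, 23.8% lower). Kcnj8 and Kcnq1 were not tested, because the filter on low counts removed them at medians of 886 and 1013 UMIs per nucleus. Without that filter 7 of 78 members passed, against 10.8% of all genes, and Kcnj8 was higher in mural-like nuclei by 4.85 (SE 0.45) and Kcnq1 lower by a log2 difference of -4.13 (SE 0.76). Kcnt2 was then 0.76 (SE 0.26, adjusted p = 0.0382) and Kcnd2 -0.68 (SE 0.23, adjusted p = 0.0396). With a looser gate 5 of 11 members passed, against 47.7% of all genes, all higher in mural-like nuclei: Kcnma1, Kcnn2, Kcnh7, Kcnd2 and Kcnc2. Kcnt2 was not among them, and Kcnd2 was 0.60 (SE 0.19, adjusted p = 0.0105), the opposite sign to its value without the filter. Endothelial-like nuclei had haemoglobin genes among the 10 genes of highest fold.

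Genes whose proteins bind potassium channels were taken as a list of 21. Kcnip4, an auxiliary subunit of Kv4 channels, was highest in thalamic-like neurons at 18552 CPM ± 2913 (SD, n = 8), and Kcnip3 of the same family in precursor-like nuclei at 317 ± 28.3, 2.31-fold over mid-layer-like neurons, beside their high Kcnd2. Kcnip1 was highest in Vip-like interneurons, at 855 CPM ± 204 (SD, n = 8). Cntn2, the axonal and glial adhesion protein that clusters Kv1 channels beside the node of Ranvier, was highest in oligodendrocyte-like nuclei with Kcna1 and Kcna6, at 481 CPM ± 43.9 (SD, n = 8), 7.76-fold over dentate-like neurons. Of the partners tested by edgeR, 10 of 15 passed between Pvalb-like and Sst-like nuclei (4 higher, 6 lower), where 32.8% of all genes did. Between Vip-like and Lamp5-like nuclei 5 of 13 passed (4 higher, 1 lower; 23.4% of all genes), and between Drd1-like and Drd2-like nuclei 5 of 13 (1 higher, 4 lower; 11.0%). Interneurons and cortical excitatory neurons differed in 16 of 18 (5 higher, 11 lower), against 53.6% of all genes, and precursors and oligodendrocytes in 12 of 13 (9 higher, 3 lower), against 56.4%. In mural-like against endothelial-like nuclei 1 of 8 passed, Abcc9, a share below the 43.5% of all genes.

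Between the groups, no potassium channel gene passed in any class. Each contrast was fitted in 19 classes over all 8 libraries. It held 627 pairs of a class and a member, noncoding ones included, among 139622 pairs of a class and any gene. For TBI averaged over BCAS, BCAS averaged over TBI, the interaction, and BCAS+TBI against TBI, 0 members passed an adjusted p of 0.05 in edgeR, where 0.0% of all pairs passed. At an unadjusted p under 0.05 there were 15 (2.39%), 5 (0.797%), 16 (2.55%) and 9 (1.44%) member pairs, against 1.18%, 0.983%, 1.14% and 1.11% of all pairs, and DESeq2's Wald test gave 7, 3, 8 and 4, against 0.327%, 0.264%, 0.305% and 0.308% of all pairs. The members' median log2 differences were -0.03, -0.01, -0.12 and -0.06, against 0.01, 0.00, 0.01 and 0.01 over all pairs. Leaving out 1 library of this fit without a block turned each of these medians. For TBI they ran from -0.12 without TBI 2 to 0.07 without BCAS 2, and for BCAS from -0.11 without BCAS 2 to 0.08 without TBI 2. For the interaction they ran from -0.31 without BCAS+TBI 1 to 0.08 without TBI 2, with 0.05 without BCAS 2, and for BCAS+TBI against TBI from -0.27 without BCAS+TBI 1 to 0.11 without TBI 2. BCAS+TBI against TBI shares its 4 libraries with the interaction. Leaving out a library also left the depth sets unequal between the groups, so these turns cannot be told apart from depth. With the depth set as a block and all 8 libraries, the medians were -0.03, -0.01, -0.13 and -0.05 in the same order of contrasts. With 2 libraries a group, a simulation in layer 6-like nuclei alone recovered 27.6% of 2-fold and 87.6% of 4-fold changes of TBI averaged over BCAS. It was adjusted over 11682 genes, whereas the contrasts were adjusted over 139622 pairs. Layer 6-like was also the neuron class with most nuclei (1771). Other classes were not simulated, so these percentages do not give the recovery in the contrasts over all classes.

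With the depth set of the library as a block, 0 members passed again, against 0.000716%, 0.0143%, 0.0107% and 0.0122% of all pairs in the same order. Unadjusted p-values under 0.05 then numbered 54 (8.61%), 29 (4.63%), 52 (8.29%) and 43 (6.86%) member pairs, against 4.42%, 3.76%, 4.57% and 4.29% of all pairs. The smallest adjusted p-values of a member were 0.136, 0.158, 0.0968 and 0.0548. Leaving out 1 library of this blocked fit gave some calls, with log2 differences of -4.51 to -0.50. Without TBI 1, 6 member pairs passed for the interaction, where 0.0927% of all pairs did: Kcnh8 in layer 6-like neurons, Kcnh7 and Kcnt2 in astrocyte-like, Kcnma1 and Kcnd2 in choroid plexus-like and Kcnc2 in microglia-like nuclei. Without control 1, 4 passed, against 0.0607% of all pairs (Kcnh8 in layer 6-like, Kcnh7 in astrocyte-like, Kcnma1 and Kcnq5 in fibroblast-like nuclei), and without BCAS+TBI 2 1, Kcnh8 in layer 6-like neurons (adjusted p = 0.0379), against 0.0443%. For BCAS+TBI against TBI, 5 passed without TBI 1, against 0.113% of all pairs. Kcnd2 in fibroblast-like nuclei passed alone without control 1, control 2, BCAS 1, BCAS 2 or BCAS+TBI 2, where 0.0412%, 0.0359%, 0.0278%, 0.0242% and 0.0279% of all pairs passed. For BCAS, Kcnd3 in thalamic-like neurons passed without TBI 1 or without BCAS+TBI 2, against 0.0781% and 0.0279%. A contrast with 1 library left in a group assumes that it varies like the others. Without TBI 1 the TBI group is TBI 2 alone. The 4 pan-neuronal genes had 361 CPM in TBI 1 and 1523 in TBI 2 in astrocyte-like nuclei and 411 and 1401 in choroid plexus-like. In microglia-like nuclei they had 1736 and 3036, and in fibroblast-like 743 and 1787. The part of neuronal RNA in the calls of these classes was not tested.

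The pairs with the smallest p-values for TBI were Kcnc2 in Drd2-like neurons, Kcnb2 in choroid plexus-like nuclei and Kcnd3 in fibroblast-like nuclei. Kcnc2 had 304 and 349 CPM in control, 194 and 267 in BCAS, 120.1 and 132 in TBI and 163 and 128 in BCAS+TBI in Drd2-like neurons. All 4 libraries with TBI lay below the 4 without, in both depth sets, with a log2 difference of -1.01 (SE 0.22, unadjusted p = 0.000442) that did not pass (adjusted p = 1 without a block and 0.136 with the set as a block). Kcnb2 had 129 and 64.9 CPM in control, 135 and 189 in BCAS, 27.4 and 45.2 in TBI and 36.4 and 0 in BCAS+TBI in choroid plexus-like nuclei, again with no overlap and a difference of -2.20 (SE 0.61, unadjusted p = 0.0034), while the 4 pan-neuronal genes together had 720.0 and 811 CPM in control, 1234 and 1641 in BCAS, 411 and 1401 in TBI and 792 and 757 in BCAS+TBI there. Kcnd3 had 159.8 and 191 CPM in control, 313 and 116 in BCAS, 121 and 85.7 in TBI and 68.1 and 68.5 in BCAS+TBI in fibroblast-like nuclei, where TBI 1 was above BCAS 2, and a difference of -1.17 (SE 0.39, unadjusted p = 0.00968). The pan-neuronal genes had 1291 and 1028 CPM in control, 1324 and 1731 in BCAS, 743 and 1787 in TBI and 1146 and 425 in BCAS+TBI in these fibroblast-like nuclei. The part of neuronal RNA in the choroid plexus-like and fibroblast-like values was not tested.

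For BCAS the 3 pairs were Kcnj6 in oligodendrocyte-like nuclei, Kcnc2 in precursor-like nuclei and Kcnq5 in microglia-like nuclei. Kcnj6 had 21.2 and 23.3 CPM in control, 53.5 and 63.4 in BCAS, 23 and 37.2 in TBI and 43.6 and 43.6 in BCAS+TBI. Each of the 4 libraries with BCAS was above all 4 without, and the difference of 1.02 (SE 0.27, unadjusted p = 0.00355) did not pass. In oligodendrocyte-like nuclei the pan-neuronal genes had 1209 and 1251 CPM in control and 1158 and 1403 in BCAS. They had 1025 and 1713 CPM in TBI and 1276 and 1105 in BCAS+TBI, and the part of neuronal RNA in the Kcnj6 values was not tested. Kcnc2 had 156 and 142 CPM in control, 67.4 and 76.9 in BCAS, 96.4 and 212 in TBI and 117 and 53.1 in BCAS+TBI in precursor-like nuclei, a difference of -0.88 (SE 0.32, unadjusted p = 0.0184), and the groups overlapped. Kcnq5 had 180.2 and 193 CPM in control, 301 and 386 in BCAS, 148 and 309 in TBI and 301 and 280.3 in BCAS+TBI in microglia-like nuclei, a difference of 0.65 (SE 0.27, unadjusted p = 0.0348) with overlap. The pan-neuronal genes had 2019 and 1096 CPM in control, 1061 and 1136 in BCAS, 898 and 4037 in TBI and 1348 and 2202 in BCAS+TBI in precursor-like and 2105 and 1528 CPM in control, 3049 and 2058 in BCAS, 1736 and 3036 in TBI and 1442 and 3061 in BCAS+TBI in microglia-like nuclei, and their part was not tested.

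For the interaction, the change with both surgeries beyond the sum of each alone, the smallest p was that of Kcnh8 in layer 6-like neurons. It had 3.44 and 7.02 CPM in control, 16.4 and 14.4 in BCAS, 17.5 and 17.2 in TBI and 4.08 and 5.23 in BCAS+TBI: both libraries of each single surgery were above all 4 control and BCAS+TBI libraries, from 150 UMIs over 8 libraries. The difference was -3.33 (SE 0.62, unadjusted p = 0.000485) for the interaction and -1.94 (SE 0.45, unadjusted p = 0.00197) for BCAS+TBI against TBI, and neither passed. In precursor-like nuclei, its main class, Kcnh8 gave no such order, as its 8 values above show. Kcnc2 in microglia-like nuclei followed, with 47.4 and 61.7 CPM in control, 228 and 139 in BCAS, 171 and 397 in TBI and 183 and 121 in BCAS+TBI and a difference of -2.56 (SE 0.71, unadjusted p = 0.00326). Kcnq5 had 24.6 and 102 CPM in control, 92 and 407 in BCAS, 75.9 and 233 in TBI and 79.4 and 13.7 in BCAS+TBI in fibroblast-like nuclei, a difference of -3.53 (SE 1.13, unadjusted p = 0.00773) that became 0.12 with a looser gate. For BCAS+TBI against TBI, Kcnma1 had 231 and 251 CPM in control, 103 and 439.9 in BCAS, 785 and 646 in TBI and 87.8 and 217 in BCAS+TBI in mural-like nuclei, where both TBI libraries were above the other 6, and a difference of -2.32 (SE 0.68, unadjusted p = 0.0062). Kcnh7 had 61.5 and 59.7 CPM in control, 73.6 and 189 in BCAS, 91 and 318 in TBI and 45.4 and 68.5 in BCAS+TBI in fibroblast-like nuclei, a difference of -1.89 (SE 0.69, unadjusted p = 0.0168) that became 0.34 with a looser gate. The pan-neuronal genes of microglia-like and fibroblast-like nuclei are given above. Mural-like nuclei had 1156 and 752 CPM in control, 788 and 2229 in BCAS, 2449.5 and 2457 in TBI and 1163 and 2059 in BCAS+TBI of the pan-neuronal genes, whose part was not tested.

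**Figure D5:**
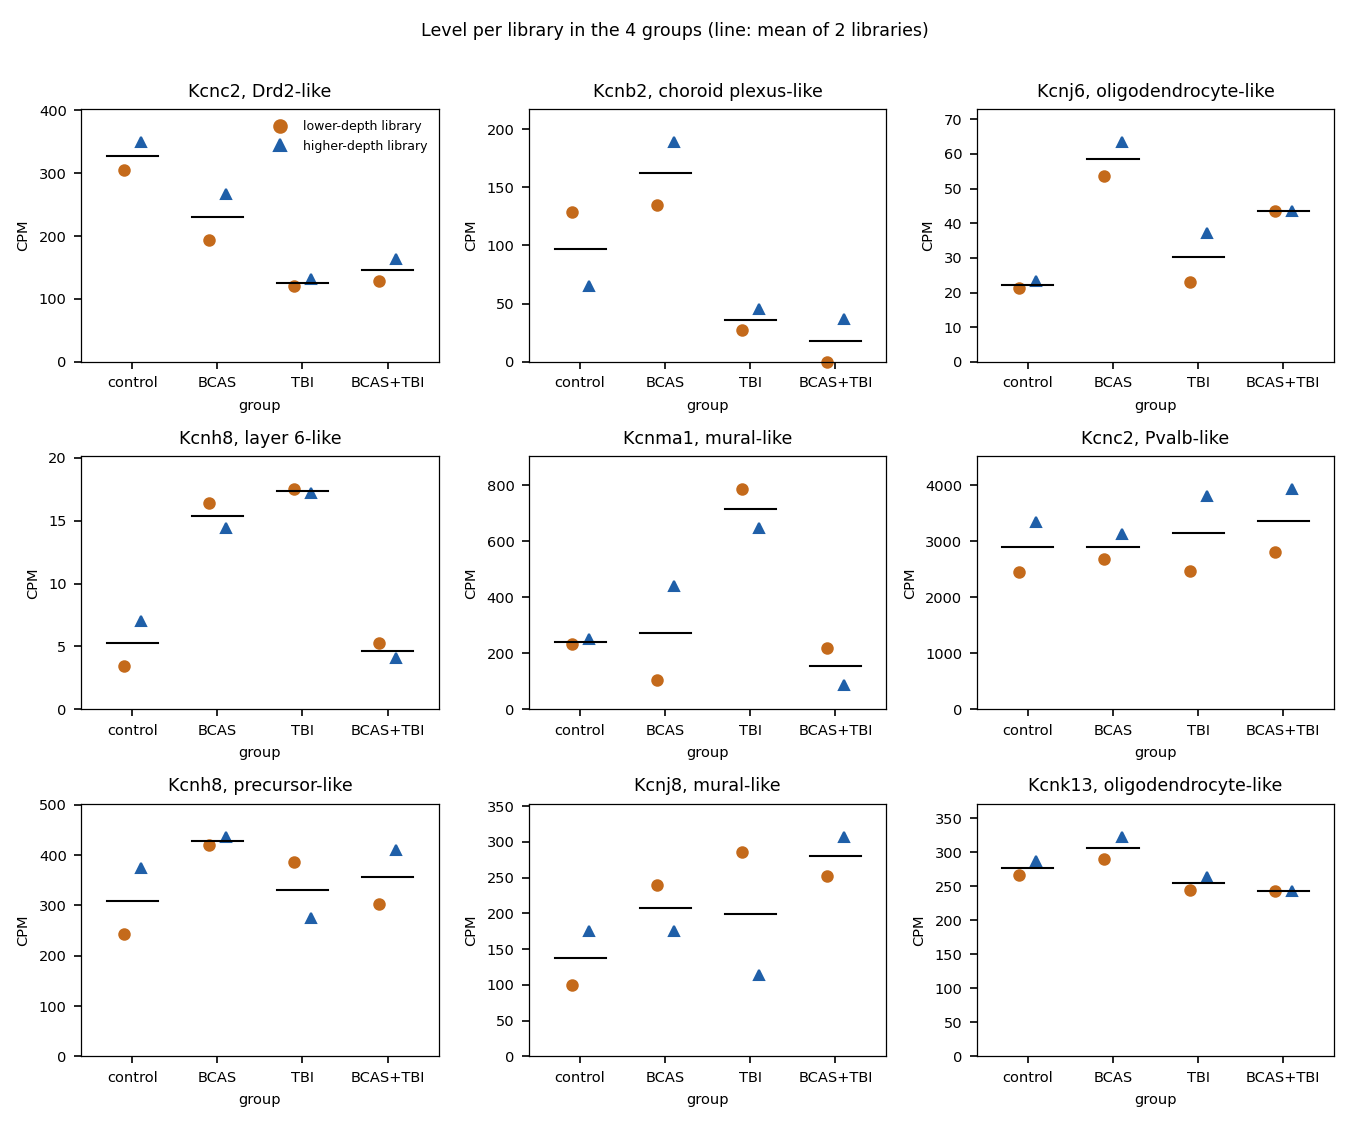
Level per library (CPM, vertical axis from 0) by group for 9 pairs of a gene and a class; circles are lower-depth and triangles higher-depth libraries, and bars are the mean of 2 libraries. Kcnc2 in Drd2-like neurons runs from 120 to 163 CPM with TBI and from 194 to 349 without, while the bottom row and Kcnc2 in Pvalb-like nuclei show leading genes in their main classes, where no contrast passed.

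The leading genes of the glial, vascular and interneuron classes did not pass between the groups either. For BCAS+TBI against TBI the log2 differences were 0.11 (SE 0.32, unadjusted p = 0.73) for Kcnh8 in precursor-like nuclei, 0.49 (SE 0.64, unadjusted p = 0.459) for Kcnj8 in mural-like, -0.01 (SE 0.25, unadjusted p = 0.966) for Kcnk13 in oligodendrocyte-like and 0.17 (SE 0.44, unadjusted p = 0.702) for Kcnj13 in choroid plexus-like nuclei. For TBI they were 0.04 (SE 0.27, unadjusted p = 0.894) for Kcnk13 in microglia-like, 0.17 (SE 0.23, unadjusted p = 0.476) for Kcnc2 in Pvalb-like and -0.18 (SE 0.26, unadjusted p = 0.507) for Kcnk2 in fibroblast-like nuclei. An SE of 0.64 for Kcnj8 leaves room for a change of more than 2-fold that was not detectable here, whereas that of Kcnk13 in oligodendrocyte-like nuclei is 0.25. The 21 partner genes, in 264 pairs with a class, likewise gave 0 calls in edgeR in all 4 contrasts, with 5, 5, 13 and 12 at an unadjusted p under 0.05, where 1.18%, 0.983%, 1.14% and 1.11% of all pairs were. With the depth set as a block, 2 partner pairs passed for the interaction, against 0.0107% of all pairs: Cntnap2 in fibroblast-like nuclei (log2 difference -3.79, SE 0.60, edgeR's adjusted p = 0.0278) and Kcnip1 in layer 6-like neurons (-2.71, SE 0.43, adjusted p = 0.0482). The pan-neuronal genes of fibroblast-like nuclei are given above, and their part in the Cntnap2 value was not tested.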

How the data were processed

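Nuclei of 8 libraries were sequenced with a 10x Chromium 3′ kit, per the labels' protocols. The deposited values are raw UMI counts per gene and barcode, made by the authors, per the file headers with Cell Ranger 7.0.0. Seurat and the builds GRCm38 and mm10 are named in the submitters' processing notes, and the annotation, the counting of introns and the strand setting are not given in the sources used here. No row without a gene held a UMI.

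Of 53390 barcodes, 48468 were used: those with at least 500 UMIs and 300 genes and no more than 5% of UMIs from mitochondrial genes. Libraries held 28118725 to 56135192 UMIs, and any 2 libraries shared at most 0.32% of barcodes. Nuclei were placed in 22 classes by marker genes: 17588 passed 1 gate, 2258 that passed 2 were left out, as were 2188 glial nuclei with more than 1 UMI of neuron markers, and no doublet caller was run. The gate rule was chosen after seeing the data. CA-like and ependymal-like nuclei were few and are not described. The members, lists and markers were chosen with earlier results of these data known.

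Counts were summed per library and class, and levels are counts per 1000000 UMIs (CPM). Tests used edgeR 4.0.16 in R 4.3.3 (quasi-likelihood, TMM, filterByExpr with a minimum count of 10), with Benjamini-Hochberg adjustment over all class-gene pairs of a contrast or all genes of a class pair and a threshold of 0.05. Groups were compared in the 19 classes with tests, all 8 libraries in 1 fit. Drd1-like neurons, CA-like and ependymal-like nuclei had fewer than 20 nuclei in a library and were not tested between groups. Class pairs had the library as a block. The fits were tested on simulated data: in Pvalb-like against Sst-like nuclei 88.8% of 2-fold and 100% of 4-fold changes were recovered over 5681 genes. DESeq2 1.42.0, RLE normalization, other count filters, gates and nuclei, within-set fits, a block by depth set and leaving out each library were alternatives.

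Named genes followed a rule: the 4 members of each subfamily with most UMIs, members at least 2-fold over their next class, up to 10 passing members of a class pair in order of p, and the 3 smallest p-values of a group contrast. Results of 4 members are not reported here by name, and counts over all members include them. Sequences are from RefSeq's promoter table for GRCm38.p6 and gene positions from GENCODE M21. Python 3.11.15 with numpy 2.4.6, scipy 1.17.1, pandas 2.3.3 and matplotlib 3.10.9 were used.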

Additional observations from a re-analysis of the deposited data

How the results depend on the processing

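Potassium channel calls between classes held in most settings and those between groups stayed at or near 0. Of 635 log2 differences between classes recomputed, 626 kept their direction and side of the threshold and 9 no longer passed. Of 350 between groups 343 did, 5 passed in an alternative only and 2 changed sign: with a looser gate Kcnh7 in fibroblast-like nuclei was 0.34 for BCAS+TBI against TBI and Kcnq5 in fibroblast-like nuclei 0.12 for the interaction. Of 239 recomputed levels of named genes 226 stayed within 1 SD. The 635 differences between classes hold none that passed in an alternative only, as some mural-like against endothelial-like members did. Kcnd2 of that pair was -0.68 with no low-count filter and 0.60 with a looser gate. With a minimum count of 30, 19 of 21 members passed between Pvalb-like and Sst-like nuclei, against 47.0% of all genes. Within the 4 lower-depth libraries 7 of 24 passed between Vip-like and Lamp5-like nuclei, against 13.9%. The mural-like against endothelial-like count of 1 of 8 became 7 of 78 with no low-count filter, against 10.8% of all genes. It was 0 of 1 with a minimum count of 30, where 188 of 300 genes passed. With all barcodes it was 5 of 9 (1426 of 3209 genes) and without high-UMI nuclei 2 of 4 (578 of 1050). With a looser gate it was 5 of 11, Kcnt2 not among them, against 47.7% of all genes. Within the 4 lower-depth libraries it was 0 of 6 (385 of 1255 genes), within the 4 higher-depth ones 5 of 11 (1008 of 2557). That pair is limited by depth, since the filter left 8 members.

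Leaving out each library gave 0 to 0 member calls in all 4 contrasts without a block. With the depth set as a block it gave 0 to 0 for TBI, 0 to 1 for BCAS, 0 to 6 for the interaction and 0 to 5 for BCAS+TBI against TBI, a setting added after seeing the data. For the labelled replicate numbers, the libraries numbered 1 of control, BCAS and TBI deviated together (correlations of 0.35 to 0.43), and each went against BCAS+TBI 1 (-0.50 to -0.40). Of these only BCAS+TBI 1 is in the higher-depth set. The correlations thus have the split of the depth sets and cannot show whether the numbers pair the samples. With the replicate number as a block 0 members passed in edgeR. At an unadjusted p under 0.05 there were 14 (2.23%), 4 (0.638%), 16 (2.55%) and 7 (1.12%) member pairs. Of all pairs 0.996%, 0.811%, 0.923% and 0.926% were, in the same order.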

Other observations

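Members outside the rule for named genes add to the pattern by class and are given as values chosen after they were seen. Kcnj16, an inward rectifier that joins Kcnj10 in glia, was level between precursor-like (56.8 ± 11.8 CPM) and astrocyte-like nuclei (56.2 ± 12.8, SD, n = 8 each). Its neighbour on chromosome 11, Kcnj2, 38.2 kb away, had 30.1 ± 11.7 CPM in Drd1-like neurons and 25.1 ± 17.9 in microglia-like nuclei. Kcnh4, an ELK subunit, was shared by Drd1-like (59.4 ± 27.5), Drd2-like (57.4 ± 19.3) and upper-layer-like neurons (49 ± 9.74). The silent subunits Kcng1 and Kcnf1 were highest in layer 5-like neurons, at 27.6 ± 5.71 and 23.7 ± 7.59 CPM. Kcnn3 was highest in thalamic-like neurons, at 176 ± 26.4 CPM, with 127 ± 28 in astrocyte-like nuclei (SD, n = 8 each).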
